A study of Mus musculus with 10 samples.

Results

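This account covers Bmp6, the gene of the ligand BMP6, and 9 genes that BMP signalling through SMAD proteins is known to induce or that act within that pathway: Id1, Id2, Id3, Id4, Smad6, Smad7, Smad9, Bambi and Atoh8. The 10 genes were chosen by symbol, from what is known of the pathway, and are 10 of the 55487 gene rows measured. Earlier results of these data were known when they were chosen, so counts over the 10 beside all genes are a description and no test. All 10 were among the 17321 genes that passed the count filter. Skin of 10 mice was profiled by RNA sequencing, with 1 library per animal. KI denotes 5 mice whose genotype is labelled "5 Hamp1-KI ker", a knock-in in a series on hepcidin overexpressed in skin. WT denotes 5 wild type mice. The labels spell out neither "ker" nor the promoter of the knock-in, and give no age, sex, strain or treatment. Animal titles begin with EAS37 (KI 1, KI 2, WT 1, WT 2 and WT 3) or EAS42 (KI 3, KI 4, KI 5, WT 4 and WT 5), a prefix whose meaning is not given.

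BMP ligands bind pairs of serine/threonine kinase receptors, which phosphorylate SMAD1, SMAD5 and SMAD8, and these enter the nucleus with SMAD4 and switch on target genes. Several targets feed back on the pathway: SMAD6 and SMAD7 block receptor and SMAD signalling, and BAMBI is a receptor-like protein without a kinase. In liver, BMP6 made by endothelial cells is the main signal by which iron raises hepcidin, and in skin BMP signals restrain hair follicle stem cells and shape the hair follicle.

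Libraries held between 18.96 and 26.43 M expected counts. Hamp, the gene of hepcidin, was at 90.0, 169, 104, 95.3 and 85.6 CPM (counts scaled to library size) in KI 1 to KI 5, and at 1.90, 3.33, 2.72, 1.86 and 2.48 CPM in WT 1 to WT 5, so the genotype labels fitted the target of the knock-in in every library. Across all genes tested, 30.9% passed the test, 15.3% lower and 15.6% higher in KI skin (edgeR quasi-likelihood test, Benjamini-Hochberg adjusted p under 0.05). Every KI library lay below every WT library for 9.65% of genes. The median log2 fold change over all genes tested was -0.009. P-values weigh the difference between genotypes against the spread between these mice. That spread includes any difference between the title prefixes, which are no term in this model.

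Of the 10 genes 8 fell in KI skin and none rose, against 15.3% of all genes tested that were lower. The 8 were Bmp6, Id1, Id2, Id3, Smad7, Smad9, Bambi and Atoh8, while Id4 and Smad6 did not pass. For 5 of the 10 (Bmp6, Id3, Smad9, Bambi and Atoh8) every KI library lay below every WT library, against 9.65% of all genes. The median log2 fold change of the 10 was -0.88, and their values ran between -1.67 and -0.19. The tissue is bulk skin, so fewer cells of a type and less RNA per cell cannot be told apart.

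**Figure D1:**
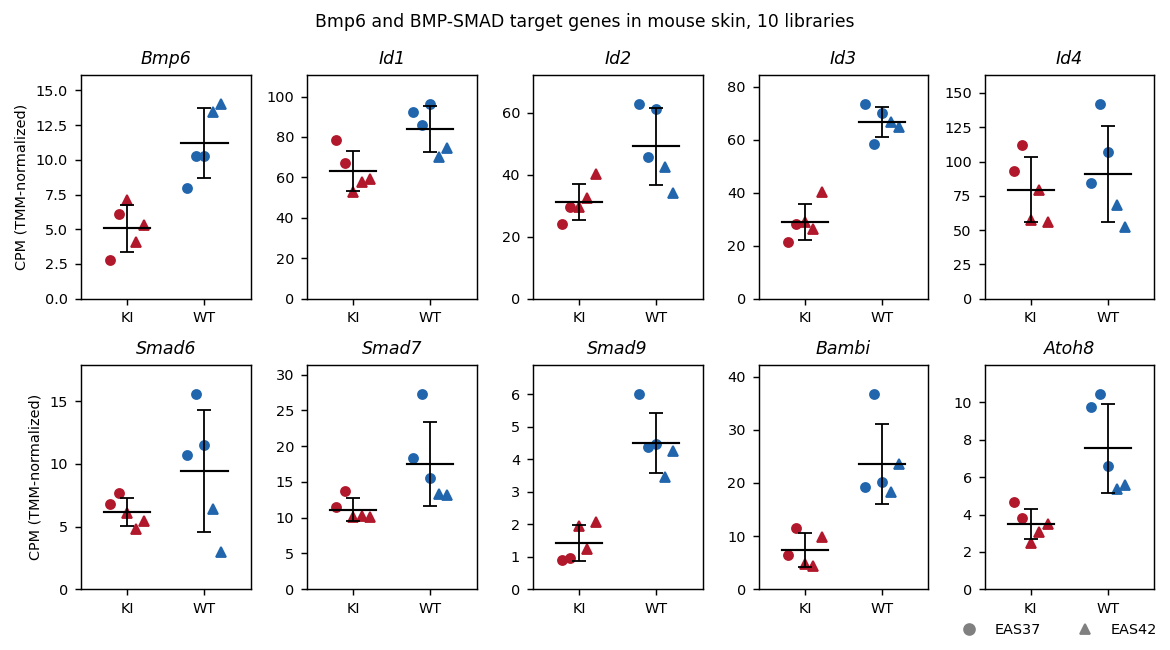
CPM of each of the 10 genes (y axis, starting at 0) in 5 KI and 5 WT libraries. Points are libraries (circles EAS37, triangles EAS42), and bars give the mean and SD. KI and WT points do not overlap for Bmp6, Id3, Smad9, Bambi and Atoh8.

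The ligand gene Bmp6 (ENSMUSG00000039004, chromosome 13 of GRCm38, 38345107 to 38500302, plus strand) was at 2.78, 6.09, 7.11, 4.11 and 5.32 CPM in KI 1 to KI 5, and at 7.99, 10.27, 10.27, 13.46 and 14.03 CPM in WT 1 to WT 5. The groups did not overlap, KI 1 was the lowest library, and the 2 WT libraries of EAS42 were the highest. Bmp6 averaged 5.08 ± 1.69 CPM in KI skin and 11.2 ± 2.51 CPM in WT skin (SD, n = 5 each), a log2 fold change of -1.14 ± 0.25 (SE; adjusted p = 0.00747, edgeR). Of the 3900 exonic bases of Bmp6, 224 (5.74%) also lie in exons of Txndc5 on the opposite strand, and the strand setting of the counting is not given in the sources used here. Txndc5 itself was at 117 ± 12.7 CPM in KI and 118 ± 19.0 CPM in WT skin (SD, n = 5 each; edgeR adjusted p = 0.923).

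Inhibitor of DNA binding proteins (ID1 to ID4) carry a helix-loop-helix domain but no DNA-binding region, and hold partner factors such as the E proteins away from DNA. Id3 (ENSMUSG00000007872, chromosome 4, 136143497 to 136145755, plus strand) was at 21.6, 28.1, 28.9, 26.5 and 40.2 CPM in KI 1 to KI 5, and at 73.6, 58.4, 70.0, 66.8 and 64.8 CPM in WT 1 to WT 5. Even the highest KI library, KI 5, was well below the lowest WT library, WT 2. Its log2 fold change of -1.2 ± 0.14 (SE; adjusted p = 4.99e-04, edgeR) had the smallest adjusted p of the 10 genes.

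Id2 (ENSMUSG00000020644, chromosome 12, 25093799 to 25097140, minus strand), which in skin is also expressed in lymphoid and dendritic cells, was at 24.1, 29.6, 29.7, 32.5 and 40.1 CPM in KI 1 to KI 5, and at 62.9, 45.7, 61.1, 42.4 and 34.0 CPM in WT 1 to WT 5. Only KI 5 and WT 5, both EAS42, crossed. The log2 fold change was -0.66 ± 0.18 (SE; adjusted p = 0.0212, edgeR), and the call was lost without KI 2 and WT 2 together (adjusted p = 0.0599).

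Id1 (ENSMUSG00000042745, chromosome 2, 152736251 to 152737410, plus strand), the ID gene most often read as a sign of BMP6 activity in liver, was at 78.4, 67.2, 52.9, 57.9 and 59.0 CPM in KI 1 to KI 5, and at 92.3, 85.9, 96.4, 70.0 and 74.6 CPM in WT 1 to WT 5. KI 1 exceeded the 2 WT libraries of EAS42, and within each prefix every KI library was below every WT library. The log2 fold change of -0.41 ± 0.12 (SE; adjusted p = 0.0280, edgeR) was the smallest of the 8 calls. It was lost without any 1 of KI 3, KI 4, KI 5, WT 1 or WT 3 (adjusted p between 0.0538 and 0.0786), and without KI 2 and WT 2 together (0.0633).

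Id4 (ENSMUSG00000021379, chromosome 13, 48261228 to 48266026, plus strand) was at 92.9, 112, 57.7, 79.0 and 56.2 CPM in KI 1 to KI 5, and at 84.2, 142, 107, 68.2 and 52.1 CPM in WT 1 to WT 5. The groups overlapped over nearly their whole range, with the EAS42 libraries low in both genotypes. Id4 overlaps the annotated genes A330033J07Rik and Gm49291, which were both below 1 CPM on average in each genotype. The log2 fold change was -0.19 ± 0.28 (SE; adjusted p = 0.640, edgeR).

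Bambi (ENSMUSG00000024232, chromosome 18, 3507923 to 3516404, plus strand) was at 6.51, 11.6, 4.67, 4.40 and 9.78 CPM in KI 1 to KI 5, and at 19.3, 36.7, 20.1, 18.3 and 23.5 CPM in WT 1 to WT 5. No KI library came near the lowest WT library, WT 4, and WT 2 stood above the other WT libraries. The mean was 7.39 ± 3.19 CPM in KI and 23.6 ± 7.58 CPM in WT skin (SD, n = 5 each), and the log2 fold change of -1.67 ± 0.31 (SE; adjusted p = 0.00392, edgeR) was the largest of the 10 genes, beside that of Smad9.

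Smad7 (ENSMUSG00000025880, chromosome 18, 75367529 to 75395935, plus strand), whose product turns off both BMP and TGF-beta receptors, was at 11.5, 13.8, 10.1, 10.2 and 10.1 CPM in KI 1 to KI 5, and at 18.4, 27.2, 15.5, 13.3 and 13.2 CPM in WT 1 to WT 5. KI 2 lay just above WT 4 and WT 5, and within each prefix the genotypes did not overlap. Its log2 fold change of -0.65 ± 0.20 (SE; adjusted p = 0.0304, edgeR) lay near the threshold, and without any 1 of KI 1, KI 3, KI 4, KI 5 or WT 1 the call was lost (adjusted p between 0.0561 and 0.0750).

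Smad6 (ENSMUSG00000036867, chromosome 9, 63953076 to 64022059, minus strand), the inhibitory SMAD more selective for BMP signals, was at 6.81, 7.71, 6.10, 4.78 and 5.42 CPM in KI 1 to KI 5, and at 10.7, 15.6, 11.5, 6.37 and 2.98 CPM in WT 1 to WT 5. WT libraries spread more than KI libraries, and WT 5 was the lowest of all 10. The log2 fold change was -0.61 ± 0.36 (SE; adjusted p = 0.215, edgeR). Without WT 5 it was -0.84, and Smad6 passed (adjusted p = 0.0318).

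Smad9 (ENSMUSG00000027796, chromosome 3, 54755582 to 54801257, plus strand) encodes SMAD8, a SMAD that BMP receptors phosphorylate and whose gene is itself raised by BMP signals. It was at 0.908, 0.952, 1.96, 1.23 and 2.08 CPM in KI 1 to KI 5, and at 6.0, 4.39, 4.47, 3.45 and 4.26 CPM in WT 1 to WT 5. These values rest on 18 to 45 counts in KI libraries and 83 to 136 counts in WT libraries, and the groups did not overlap. The log2 fold change was -1.66 ± 0.27 (SE; adjusted p = 0.00226, edgeR).

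Atoh8 (ENSMUSG00000037621, chromosome 6, 72206177 to 72235577, minus strand), a helix-loop-helix transcription factor that follows Bmp6 in iron-loaded mouse liver, was at 4.64, 3.81, 2.49, 3.05 and 3.5 CPM in KI 1 to KI 5, and at 9.75, 10.4, 6.58, 5.38 and 5.59 CPM in WT 1 to WT 5. The groups did not overlap, and within both genotypes the EAS42 libraries were the lower ones. Its log2 fold change was -1.11 ± 0.24 (SE; adjusted p = 0.00734, edgeR).

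Promoter sequence is shown for 2 genes that fell, Smad9 and Atoh8, and for Id4, which did not pass, so that genes of the same pathway with different values can be set side by side. Each line holds the 250 bases before the gene's start in RefSeq (GRCm38.p6), written 5′ to 3′ on the gene's strand, at chr3:54755332-54755581 (plus), chr6:72235578-72235827 (minus) and chr13:48260866-48261115 (plus). Capitals mark matches on either strand to GGCGCC or GGAGCC, GC-rich words to which SMAD1 and SMAD5 bind (GGAGCC reads GGCTCC on the other strand).
Smad9: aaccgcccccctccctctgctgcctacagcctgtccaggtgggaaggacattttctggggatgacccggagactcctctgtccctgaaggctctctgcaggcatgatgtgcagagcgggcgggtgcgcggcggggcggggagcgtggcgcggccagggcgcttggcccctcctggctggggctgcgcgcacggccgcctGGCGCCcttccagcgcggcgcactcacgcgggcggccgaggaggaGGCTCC
Atoh8: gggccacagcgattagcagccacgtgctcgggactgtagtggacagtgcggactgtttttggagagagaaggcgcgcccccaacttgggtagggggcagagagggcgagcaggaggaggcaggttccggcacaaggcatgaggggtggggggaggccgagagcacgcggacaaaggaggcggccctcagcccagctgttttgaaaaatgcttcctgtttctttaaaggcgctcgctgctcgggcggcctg
Id4: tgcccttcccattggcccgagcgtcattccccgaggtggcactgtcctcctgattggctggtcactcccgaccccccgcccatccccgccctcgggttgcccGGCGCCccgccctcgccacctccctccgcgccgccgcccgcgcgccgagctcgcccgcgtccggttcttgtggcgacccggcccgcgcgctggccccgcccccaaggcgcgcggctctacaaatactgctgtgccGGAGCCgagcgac
Smad9 and Id4 each hold 1 match to both words, with GGCGCC starting 51 bases before the start in Smad9 and 148 bases before it in Id4, and Atoh8 holds neither. Windows before the RefSeq start were searched in this way for 7 of the 10 genes. Those of Bmp6, Id2 and Id3 lie inside the gene as GENCODE annotates it, with 250, 161 and 250 of their 250 bases in exons, so they are not upstream sequence by that annotation. In that window GGCGCC was present in 3 of the 7 (Smad9, Id2 and Id4), against 9.59% of 32851 promoters. GGAGCC was present in 5 (Smad9, Id3, Smad6, Id2 and Id4), against 26.0%. The palindrome GTCTAGAC, another SMAD-binding word, was in none of the 7, against 0.167% of all promoters. The GC content of the 7 windows ran from 62.8% to 75.6%. The promoters they were set against were not matched for GC content, so these shares are no measure of enrichment. A match is a description of these letters and not a bound site.

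The genes differ widely in level. On the length-corrected scale of TPM (a transcript's share of each library, corrected for its length), Id1 was the highest, at 102 ± 9.41 TPM in KI and 145 ± 22.1 TPM in WT skin (SD, n = 5 each). Id3 was at 37 ± 10.5 TPM in KI skin and second in order in WT skin, at 88.7 ± 10.1 TPM. Id2 was at 37.5 ± 8.95 TPM in KI skin, level with Id3 there, and at 62.5 ± 17.0 TPM in WT skin. Id4 followed at 27.8 ± 7.44 TPM in KI and 33.8 ± 13.0 TPM in WT skin. The 4 ID genes together held 204 ± 17.5 TPM in KI and 330 ± 51.9 TPM in WT skin, and Id3 made up 18.0% ± 4.18 of this sum in KI and 27.2% ± 3.5 in WT skin.

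The other 6 genes were at a few TPM or less. In WT skin Bambi (6.58 ± 2.04 TPM), Smad7 (6.5 ± 2.71 TPM), Atoh8 (6.05 ± 1.77 TPM), Smad6 (4.63 ± 2.39 TPM) and Bmp6 (4.47 ± 0.911 TPM) did not differ from their neighbours in this order beyond their SD. In KI skin the order was Smad7 (3.71 ± 0.441 TPM), Smad6 (2.84 ± 0.438 TPM), Atoh8 (2.67 ± 0.642 TPM), Bmp6 (2.01 ± 0.747 TPM) and Bambi (1.96 ± 0.857 TPM). By mean, Bambi stood first of these 5 in WT skin and last in KI skin, but its gaps to Smad7 in WT and Bmp6 in KI lay within the SD. Smad9 was lowest in both, at 0.360 ± 0.158 TPM in KI and 1.2 ± 0.279 TPM in WT skin, and made up 0.702% ± 0.331 of the summed TPM of Smad1, Smad5 and Smad9 in KI and 2.33% ± 0.509 in WT skin.

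Single libraries were not uniformly low or high over the 10 genes. The median log2 ratio to the WT mean was -0.866, -0.805, -0.762, -1.144 and -0.798 in KI 1 to KI 5, and 0.140, 0.251, 0.028, -0.378 and -0.289 in WT 1 to WT 5. KI 1 had the lowest KI value for Bmp6, Id2, Id3 and Smad9 but the highest for Id1 and Atoh8. KI 5 was highest among KI libraries for Id2, Id3 and Smad9, and KI 2 for Id4, Smad6, Smad7 and Bambi. Among WT libraries, WT 2 was the highest for Id4, Smad6, Smad7, Bambi and Atoh8 and the lowest for Id3.

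**Figure D2:**
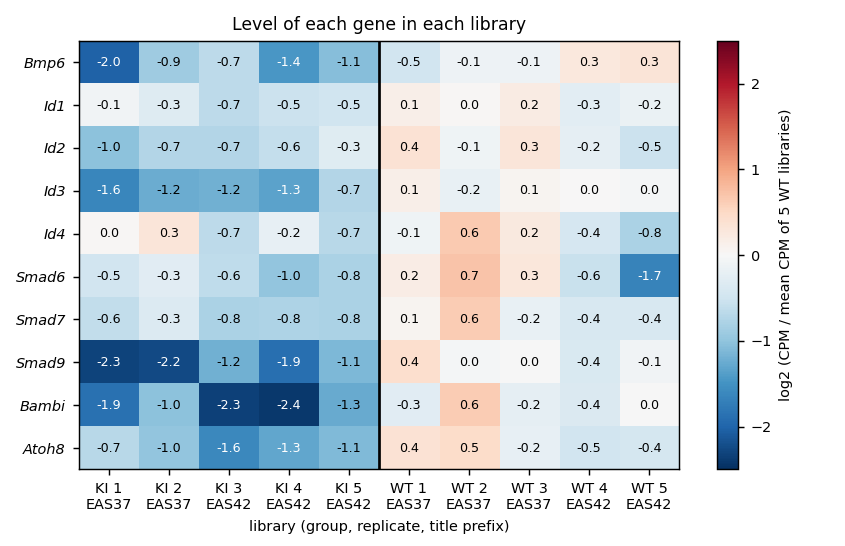
Log2 ratio of each gene's CPM to the mean of the 5 WT libraries (colour and number), genes in rows, KI libraries left of WT libraries in columns. Every gene except Id4 lies below the WT mean in all KI columns, and Id4 lies above it in KI 1 and KI 2. Id4 and Smad6 also vary within WT, down to -1.7 for Smad6 in WT 5.

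Values within each genotype were also set side by side by title prefix. Both EAS42 WT libraries lay below all EAS37 WT libraries for 7 of the 10 genes, above them for Bmp6, and overlapped with them for Id3 and Bambi. In KI skin the EAS42 libraries lay below the EAS37 libraries for 5 genes (Id1, Id4, Smad6, Smad7 and Atoh8) and above them for Smad9. The share of all genes separated in this way was not counted, so these counts have no background to be read against. They describe the libraries and are no result particular to the 10 genes. Over all genes tested, principal component 2 (an axis of shared variation, 26.9% of the variance) also split the libraries by prefix. Markers of the hair matrix and sheath (Krt25, Krt27, Krt31, Krt71 and Tchh) also moved with the prefix. Their mean log2 CPM was 5.24 and 7.2 in the EAS37 KI libraries and 3.95, 9.22 and 6.22 in the EAS37 WT libraries. It was -0.27, -0.55 and 1.34 in the EAS42 KI libraries and -0.39 and 1.7 in the EAS42 WT libraries. WT 2, the highest here, was also the highest WT library for Id4, Smad6, Smad7, Bambi and Atoh8. The part of these markers in the values of the 10 genes was not tested.

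Within prefixes, in a model with an interaction, 8 of the 10 genes were lower in KI skin with EAS37 (18.4% of all genes were lower) and 6 with EAS42 (7.13% of all genes). Bmp6 had log2 fold changes of -1.10 ± 0.33 with EAS37 and -1.32 ± 0.31 with EAS42 (SE). Bambi had -1.48 ± 0.45 and -1.74 ± 0.43, and Id3 had -1.44 ± 0.20 and -1.05 ± 0.18. Smad9 was at -2.41 ± 0.33 with EAS37 and -1.14 ± 0.29 with EAS42. Id2 was at -1.08 ± 0.19 with EAS37 and -0.17 ± 0.18 with EAS42, where it did not pass (edgeR adjusted p = 0.572). Smad7 did not pass with EAS42 either (-0.39 ± 0.21, edgeR adjusted p = 0.247), and Smad6 was at -0.79 ± 0.30 with EAS37 and 0.21 ± 0.30 with EAS42, passing in neither within this model. Fitted on the EAS37 libraries alone, Smad6 passed (-0.77, adjusted p = 0.0386, edgeR), while Bmp6, Id1, Smad7 and Bambi lost their calls (adjusted p between 0.0535 and 0.101). Fitted on the EAS42 libraries alone, Id2, Smad7, Smad9 and Atoh8 lost theirs (edgeR adjusted p = 0.503, 0.107, 0.055 and 0.0507). Smad9 and Atoh8 did pass with EAS42 in the interaction model, which takes the spread from all libraries. The difference between the prefixes themselves passed for none of the 10 genes (edgeR interaction test), against 0.866% of all genes. At an unadjusted p under 0.05 it did for 3 of the 10, against 17.7% of all genes. These were Id2 (EAS42 minus EAS37 difference in log2 fold change 0.91 ± 0.26, SE; adjusted p = 0.115, edgeR), Smad9 (1.27 ± 0.43; adjusted p = 0.171, edgeR) and Smad6 (1.0 ± 0.42; adjusted p = 0.249, edgeR).

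**Figure D3:**
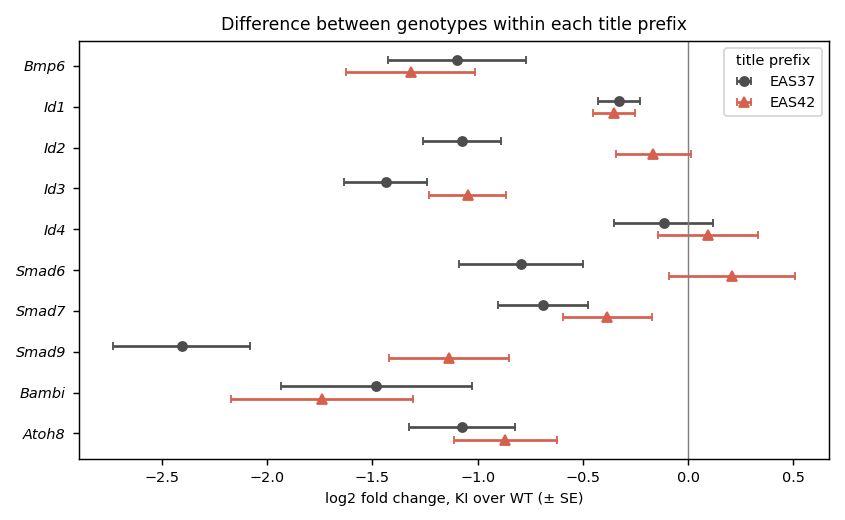
Log2 fold change of KI over WT (x axis) with its SE for each gene, separately for EAS37 (2 KI, 3 WT; circles) and EAS42 (3 KI, 2 WT; triangles). Bmp6, Id1, Bambi and Atoh8 are close in both, while Id2, Id3, Smad6, Smad7 and Smad9 lie nearer to 0 or above it with EAS42.

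Other BMP ligands moved as well. Of 12 further ligand genes 5 passed the count filter, and 3 of these fell and none rose (median log2 fold change -1.11). Of all genes tested, 15.3% were lower and 15.6% higher in KI skin. Bmp4, which marks the dermal papilla and mesenchyme of the hair follicle, was at 5.80, 10.9, 8.33, 5.59 and 13.0 CPM in KI 1 to KI 5, and at 28.0, 39.7, 22.3, 32.2 and 28.5 CPM in WT 1 to WT 5, without overlap (log2 fold change -1.79 ± 0.25, SE; adjusted p = 0.00114, edgeR). Bmp2, another ligand of the hair follicle, averaged 20.9 ± 10.5 CPM in KI and 60.2 ± 17.6 CPM in WT skin (SD, n = 5 each; edgeR adjusted p = 0.00927). Bmp3, which encodes a ligand that opposes other BMPs, averaged 7.47 ± 2.32 and 16.1 ± 6.44 CPM in KI and WT skin (edgeR adjusted p = 0.0256), and lost its call without any 1 of KI 2, KI 4, WT 4 or WT 5 (adjusted p between 0.0526 and 0.0562). The 2 ligands that did not pass were Bmp5, near 1 CPM in both groups, and Bmp7.

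Bmp7, a ligand of epithelium and dermal papilla, had a log2 fold change of 0.34 ± 0.19 (SE; adjusted p = 0.180, edgeR) over all libraries. Within prefixes it was 0.40 with EAS37 and 0.53 with EAS42 (edgeR adjusted p = 0.0305 and 0.0242). Summed over Bmp2 to Bmp7, ligand transcripts were at 52.3 ± 4.66 TPM in KI and 89.9 ± 4.89 TPM in WT skin (SD, n = 5 each). Bmp7 made up 62.2% ± 13.4 of this sum in KI and 30.1% ± 6.38 in WT skin, with no overlap between the groups, and Bmp6 made up 3.84% ± 1.45 and 5.01% ± 1.17 in KI and WT skin. Bmp6 was thus a small part of ligand transcripts in either genotype.

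**Figure D4:**
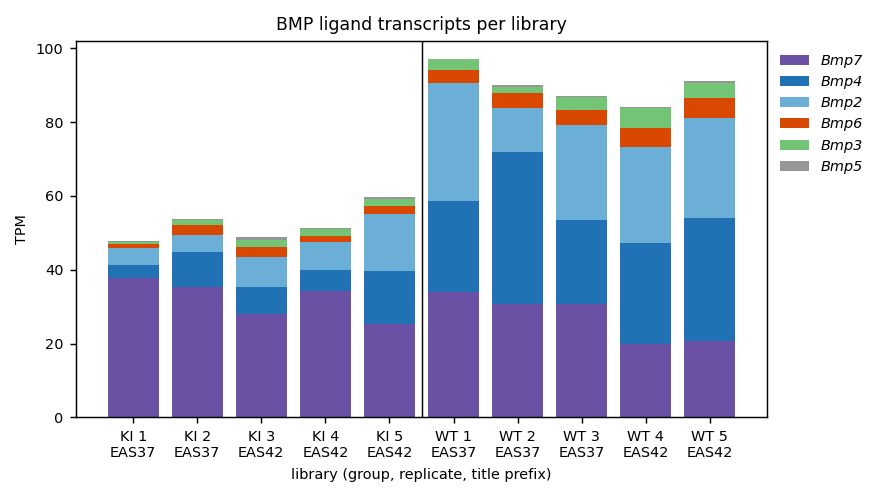
TPM of 6 BMP ligand genes stacked per library (y axis, starting at 0), KI libraries left of WT libraries. The stacks reach between 47.9 and 59.6 TPM in KI and between 84.1 and 97.2 TPM in WT libraries, and the segments of Bmp4 and Bmp2 are the ones that shrink most.

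Against 15.3% lower and 15.6% higher among all genes tested, 4 of 12 receptor and co-receptor genes fell and none rose (median log2 fold change -0.17). They were the BMP co-receptor Rgmb (-0.63 ± 0.14), its binding partner neogenin, Neo1 (-0.52 ± 0.06), and the endothelial BMP9 receptors Eng (-0.54 ± 0.11) and Acvrl1 (-0.47 ± 0.10; SE, edgeR adjusted p between 5.38e-04 and 0.00925). Within EAS42, Rgmb and Neo1 passed as lower, and Eng and Acvrl1 did not pass. Rgma (0.568) and Acvr1 (0.55) passed as higher there (edgeR adjusted p = 0.0178 and 0.025). With EAS37 they were at 0.246 and -0.135 and did not pass. The type I receptor Bmpr1a was at 167 ± 20.4 CPM in KI and 163 ± 23.5 CPM in WT skin, and the type II receptor Bmpr2 at 144 ± 10.9 and 138 ± 13.2 CPM in KI and WT skin (SD, n = 5 each; edgeR adjusted p = 0.825 and 0.580). Hfe2, the gene of the co-receptor hemojuvelin, which liver and skeletal muscle express, was at 45.9 ± 28.7 CPM in KI and 107 ± 24.6 CPM in WT skin and just missed the threshold (edgeR adjusted p = 0.0530). In these libraries the summed level of 14 skeletal muscle markers was between 2938 and 28610 CPM in KI and between 26860 and 47330 CPM in WT skin.

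None of 5 signal-carrying SMAD genes passed in either direction (Smad1, Smad2, Smad3, Smad4 and Smad5), against 30.9% of all genes. Their log2 fold changes ran from -0.12 to 0.26. The largest was that of Smad1, at 0.26 ± 0.10 (SE; adjusted p = 0.0633, edgeR). Within prefixes Smad1 was at 0.26 ± 0.10 with EAS37 and 0.37 ± 0.10 with EAS42 (SE; edgeR adjusted p = 0.068 and 0.04). It passed with EAS42, and no other of the 5 passed with either prefix. Of the hepatic partners Tfr2, Hfe and Tmprss6, 2 passed the count filter and neither was called.

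Among all genes tested, 15.3% were lower and 15.6% higher in KI skin. Extracellular antagonists, which trap BMP ligands, fell in 8 of 14 genes measured of 16 and rose in 1 (median log2 fold change -0.49). The 4 with the smallest p were Nbl1 (-0.74 ± 0.11), Crim1 (-0.52 ± 0.08), Twsg1 (-0.47 ± 0.09) and the chordin-like gene Chrdl1 (-1.76 ± 0.33; SE, edgeR adjusted p between 0.00162 and 0.00426). The 1 that rose was Sostdc1, an inhibitor of BMP and WNT signals in skin epithelium, at 120 ± 21.2 CPM in KI and 75.2 ± 16.7 CPM in WT skin (SD, n = 5 each; edgeR adjusted p = 0.0156). Of 7 intracellular attenuators 3 fell and 2 rose, against the same shares of all genes. The 2 that rose were Skil (0.66 ± 0.20), a repressor of SMAD activity, and the ubiquitin ligase gene Smurf1 (0.34 ± 0.11). Skil lost its call without any 1 of KI 1, KI 2, KI 4, WT 1, WT 4 or WT 5 (edgeR adjusted p between 0.0547 and 0.0735). Smurf1 lost it without any 1 of these or KI 3 (between 0.0507 and 0.0832). Among the 3 that fell were Tob2 (-0.48 ± 0.09) and Tob1 (-0.43 ± 0.14; SE, edgeR adjusted p = 0.00453 and 0.0335). Tob1 lost its call without any 1 of KI 1, KI 2, KI 4, KI 5, WT 3 or WT 4 (adjusted p between 0.0664 and 0.0935).

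Of 7 further transcription factors that BMP signals induce, 3 fell and none rose (median -0.65), against 15.3% lower and 15.6% higher of all genes. Hey1, a target shared with Notch signalling, was at 3.28, 4.85, 5.84, 5.08 and 7.04 CPM in KI 1 to KI 5, and at 16.2, 13.9, 19.0, 14.5 and 11.7 CPM in WT 1 to WT 5, a log2 fold change of -1.53 ± 0.20 (SE; adjusted p = 7.36e-04, edgeR) without overlap. Msx1, a homeobox gene of appendage development, fell by 1.22 on the log2 scale (edgeR adjusted p = 0.0114). Gata3, a factor of epidermis and lymphocytes, was lower by a log2 fold change of -0.48 ± 0.15 (SE; adjusted p = 0.0361, edgeR), a call lost without any 1 library other than KI 5 or WT 2 (adjusted p between 0.0588 and 0.0938).

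**Figure D5:**
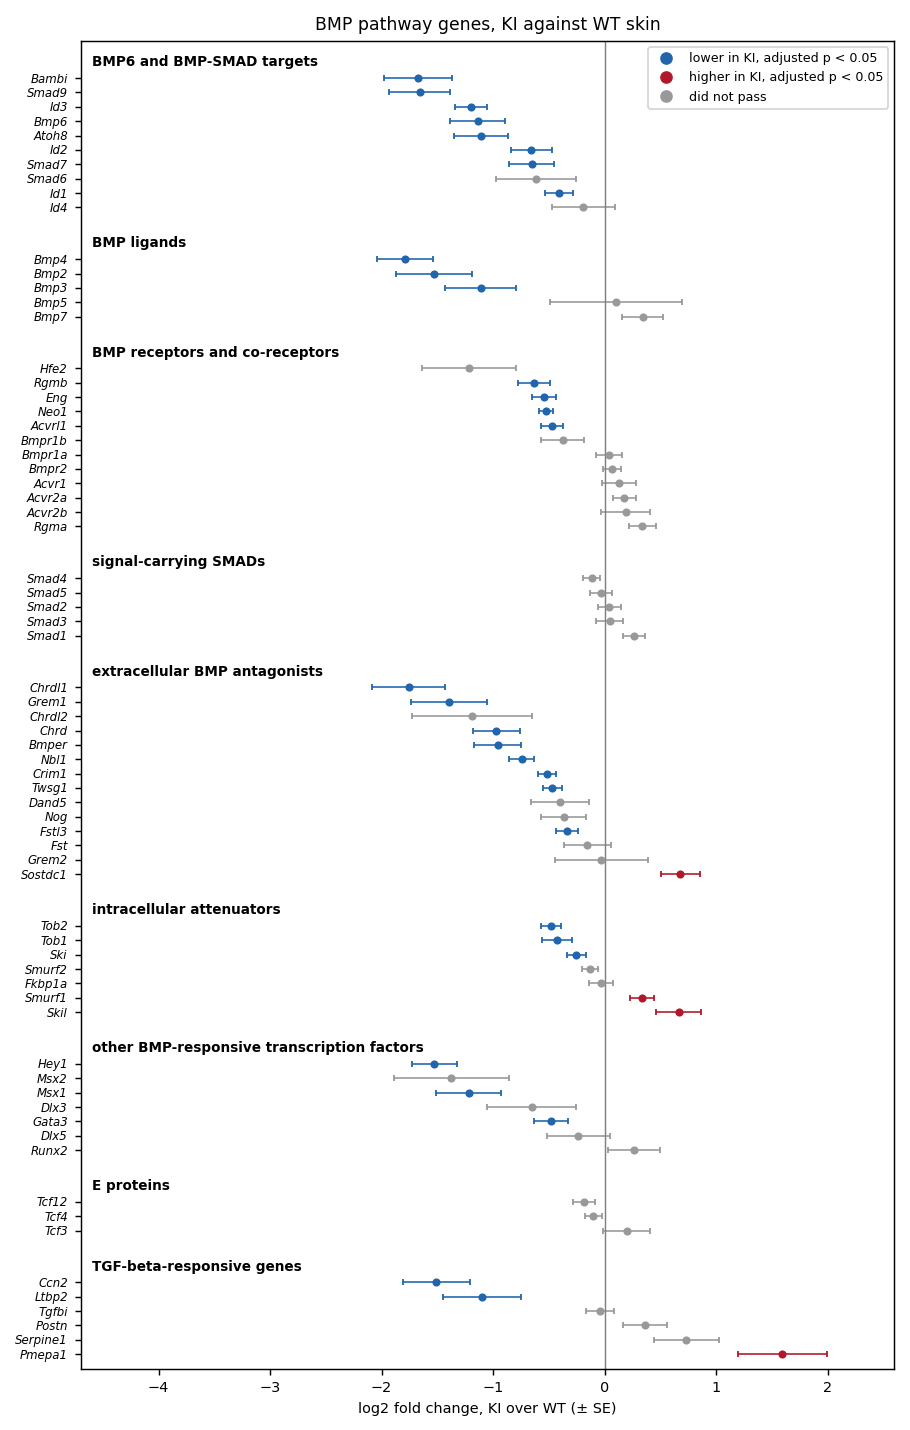
Log2 fold change of KI over WT (x axis) with its SE for the 10 genes and for BMP pathway genes that passed the count filter, grouped by role, blue where lower and red where higher in KI at an adjusted p under 0.05. Of the ligands 3 of 5 and of the receptors 4 of 12 are blue, against 15.3% of all genes that were lower. The 5 signal-carrying SMADs lie between -0.12 and 0.26 all in grey.

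Markers of several cell types of skin passed the test between the genotypes, and those of others mostly did not pass. Of all genes tested, 15.3% were lower and 15.6% higher in KI skin. Endothelial markers, of cells that make BMP6 and respond to BMP with ID genes, fell in 9 of 11 genes (median log2 fold change -0.67), and their summed level was between 177 and 244 CPM in KI and between 287 and 395 CPM in WT skin, with no marker at 0. Markers of the hair follicle bulge fell in 4 of 6 genes (median -0.89, summed level 1050 to 2810 CPM in KI and 4118 to 6259 CPM in WT skin). Schwann cell markers fell in all 7 (median -1.36, 249 to 637 CPM in KI and 828 to 2293 CPM in WT), and smooth muscle and pericyte markers in 5 of 7 (median -0.51, 316 to 432 CPM in KI and 561 to 650 CPM in WT). Adipocyte markers fell in 6 of 9 (median -1.06, 587 to 1001 CPM in KI and 1182 to 1804 CPM in WT). Suprabasal keratinocyte markers rose in 3 of 5 (median 0.91) and T cell markers in 5 of 6 (median 1.26). Krt5, Krt14 and the other 4 basal keratinocyte markers were all detected, with 1 higher and 2 lower. Of the fibroblast markers 3 of 9 fell and 1 rose (median -0.53). Of the skeletal muscle markers 2 of 14 passed as lower, near the share of all genes. Yet all 14 had negative log2 fold changes (median -1.28), against 50.9% of all genes. Their summed level was between 2938 and 28610 CPM in KI and between 26860 and 47330 CPM in WT skin. None passed among 7 macrophage, 5 melanocyte or 5 hair matrix and sheath markers (medians 0.41, -0.84 and -1.74). The part of these cell types in the values of the 10 genes was not tested. Endothelial and skeletal muscle levels only entered alternative models, given next.

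With the mean log2 CPM of the endothelial markers in the model, the log2 fold changes of the 8 called genes kept their sign and ran from -1.90 (Bambi) to -0.28 (Id2), and none passed (edgeR adjusted p between 0.447 and 0.992). The SE of Id3 was 0.283 in that model, against 0.144 without the term, and the endothelial level did not overlap between the genotypes (3.75 to 4.25 in KI and 4.52 to 4.96 in WT). That model therefore cannot tell the endothelial level and the genotype apart. Bmp6 was at -0.44 ± 0.48 there, and Atoh8 at -1.88 ± 0.49 (SE). With the skeletal muscle level in the model, Id3 (-1.11 ± 0.21, SE; adjusted p = 0.0232, edgeR) was the 1 gene of the 10 that passed, and the others of the 8 had adjusted p between 0.0525 (Bambi) and 0.223 (Id2), all negative.

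The genes closest in profile to Bmp6 and Id3 over the 10 libraries were found by the root mean square difference of log2 CPM after centring each gene on its mean, among 12550 genes with a mean of at least 5 CPM. For Bmp6 the 5 closest were Igsf9b (0.229), Plxna4 (0.260), Jam2 (0.268), Pdzd7 (0.270) and Cpxm2 (0.279). Id3 itself came 76th on that list (0.364), and 7 of the other members ranked 2031st or lower. Smad9 had a mean below 5 CPM and was not ranked. For Id3 the 5 closest were Igfbp3 (0.154), Ramp2 (0.190), Adcy6 (0.192), Borcs7 (0.194) and Rtn4rl1 (0.195), all with lower means in KI skin. Igfbp3, for example, was at 236 ± 59.9 CPM in KI and 554 ± 37.4 CPM in WT skin (SD, n = 5 each). Id2 ranked 491st and Bmp6 510th on the list of Id3. Lists chosen this way are a description and carry no test.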

How the data were processed

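Stranded mRNA libraries were prepared from skin RNA, 1 per mouse, per the labels' protocols. The submitters' processing notes list GRCm38 and the tools DESeq2 1.14.1, featureCounts, FastQC, Picard 2.8.1 and STAR 2.5.2b without a role for any. Each deposited table has the columns RSEM writes, and its expected counts and TPM are the authors' values, per the file headers. Which RSEM version, annotation release and strand option were used is not given in the sources used here. Deposited expected counts (10.4% to 12.2% of values fractional per library) were rounded. Deposited TPM values served to compare levels between genes, and the deposited effective lengths (other values, in bases) entered an alternative only.

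Genes were named from GENCODE M21 (GRCm38), which matched 55227 of 55487 identifiers. The 260 others held 0.0113% of counts. No 2 libraries agreed within sampling noise (lowest chi-square per gene 29.6 over 45 pairs). Genes were kept by filterByExpr (minimum count 10, minimum total 15), removing 0.127% of counts, and tested with edgeR 4.0.16 in R 4.3.3 (quasi-likelihood, robust, TMM) with Benjamini-Hochberg adjustment over all genes kept and a threshold of 0.05. CPM uses TMM library sizes, and log2 CPM a prior count of 2. The SE is the log2 fold change divided by the root of its F statistic. The test was tried on simulated counts.

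The members, lists and tests were chosen with earlier results of these data known. Named are Hamp, the 10 genes, up to 4 genes past the threshold with the smallest p per list, and the 5 closest profiles to Bmp6 and Id3. Sostdc1, Bmp5, Bmp7, Acvr1, Bmpr1a, Bmpr2, Hfe2, Rgma, Smad1 and Txndc5 were named after their values were seen. Alternatives were other normalizations and filters, DESeq2 1.42.0, limma-voom (limma 3.58.1), length offsets, the title prefix as a term or alone, marker levels as covariates and leaving out libraries, of which KI 2 and WT 2 together was added after the data were seen. Replicate numbers follow accession order and pair nothing.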

Additional observations from a re-analysis of the deposited data

Results flagged for a closer look

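In 90 groups of 5 libraries (named genes and marker levels), 4 held a value far from the others, and chance alone flags about 1 in 20 groups. Hamp was at 169 CPM in KI 2, above the other KI libraries. Bambi was at 36.7 CPM in WT 2, above the other WT libraries. Tob1 was at 89.6 CPM in KI 3 and Ltbp2 at 58.2 CPM in KI 5, each above the other KI libraries. The genotype difference passed a test of its own between the title prefixes for none of the 32 named genes (edgeR interaction test).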

How the results depend on the processing

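The 8 lower calls among the 10 genes stood at 8 under other normalizations and filters, DESeq2, limma-voom, length offsets and the title prefix as a term, at 6 without KI 2 and WT 2 together, and between 6 and 9 when 1 library was left out. Lower calls among the 10 came to 5 with EAS37 alone (4 of the 8, and Smad6), 4 with EAS42 alone, 1 with the skeletal muscle level and 0 with the endothelial level. All genes called (5351) came to 2488 with EAS42 alone, 406 with the muscle level and 7 with the endothelial level. Pathway genes lower in KI (23) came to 12, 3 and 0 in the same order. Pathway genes higher in KI (4) came to 8 with EAS42 alone, 7 with DESeq2, 8 with the title prefix as a term, 0 with either marker level, and between 2 and 6 when 1 library was left out. EAS37 alone and EAS42 alone each have 5 libraries, and EAS37 alone gave 5064 genes called and 21 pathway genes lower. Skeletal muscle levels (mean log2 CPM) were 7.13 to 10.3 in KI and 10.26 to 10.87 in WT skin. Endothelial levels were 3.75 to 4.25 in KI and 4.52 to 4.96 in WT skin. The cause of these changes in the counts was not tested. Signs turned for Id4 (0.083 with EAS42 alone, and between -0.342 and 0.03 when 1 library was left out, with 0.03 without WT 2) and Smad6 (0.20 with EAS42 alone), which were not called, and with the endothelial level for Eng (0.015) and Tob1 (0.18). The 150 genes whose difference varied with the prefix became 157 with DESeq2 size factors and 164 with a minimum count of 50. Depth limits the values of Smad9, at 18 to 45 counts per KI library. No paired analysis was possible because no label pairs the animals and the numbers only follow the order of accessions. The title prefix was used as a term instead.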

Other observations

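Genes that respond to TGF-beta, the sister pathway that signals through SMAD2 and SMAD3, moved both ways in KI skin. Of 6 measured, 2 fell and 1 rose (median log2 fold change 0.16), against 15.3% lower and 15.6% higher of all genes. Ccn2, a matrix-associated growth factor gene, was at 73.1 ± 29.9 CPM in KI and 208 ± 70.6 CPM in WT skin (SD, n = 5 each; edgeR adjusted p = 0.00597), without overlap. Ltbp2, a microfibril protein gene, was at 27.7 ± 17.6 CPM in KI and 59.2 ± 10.7 CPM in WT skin (edgeR adjusted p = 0.0364), a call lost without any 1 library other than KI 5 or WT 2 (edgeR adjusted p between 0.0538 and 0.0806). Pmepa1, a feedback inhibitor of TGF-beta signalling, was at 202, 189, 116, 147 and 86.2 CPM in KI 1 to KI 5, and at 46.5, 94.8, 54.7, 24.2 and 25.0 CPM in WT 1 to WT 5, where WT 2 alone crossed a KI library (log2 fold change 1.6 ± 0.40, SE; edgeR adjusted p = 0.0152). The E protein genes Tcf3, Tcf4 and Tcf12, whose products ID proteins bind, had log2 fold changes between -0.18 and 0.20, and none of the 3 passed.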
